A study of Homo sapiens with 6 samples.

Results

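The 10 genes described here encode the kinases that phosphorylate the translation factor eIF2, the phosphatase subunits that undo this mark, and the core regulators of the integrated stress response. They were taken by symbol from the 26364 genes of the authors' deposited table, and all 10 were found there. The rule itself uses no measured value, but the genes were picked with earlier results of these data known. They are the kinases EIF2AK1, EIF2AK2, EIF2AK3 and EIF2AK4, the phosphatase subunits PPP1R15A and PPP1R15B, the transcription factors ATF4 and DDIT3, the pseudokinase TRIB3 and the small chromatin protein NUPR1. RNA-seq was made from REH, an established human cell line of B-precursor acute lymphoblastic leukaemia that grows in serum-containing medium. Cells received 50 µM S3I-201, a compound made to inhibit STAT3, or its solvent DMSO for 6 h. Each group held 3 libraries from independent experiments, and both groups are the same cell line without any genetic change named in the labels. A line grown in culture has no neighbouring tissue, and a single line, dose and time were measured.

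The integrated stress response links several kinds of stress to protein synthesis. Phosphorylation of the alpha subunit of eIF2 blocks its exchange factor eIF2B, so that most translation slows while a few messages with upstream open reading frames, ATF4 among them, are translated better. ATF4 then induces genes of amino acid supply, redox control and, through DDIT3, cell death, and PPP1R15A closes the loop by bringing protein phosphatase 1 to eIF2. RNA levels show only the transcript side of this circuit: the phosphorylation of eIF2 and the amounts of the proteins were not measured in these files.

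For each gene the authors' deposited table gives 1 mean normalized count over the 6 libraries, with a fold change on the log2 scale and its p before and after adjustment, so no value per library can be shown for most genes. Single-read steps in the means of rarely detected genes gave 6 size factors, or about 6560000 to 14500000 counts per library, and the shallowest library lay 2.21-fold below the deepest. Of 17 B-precursor markers 16 were detected, all 16 with a mean of at least 100 and led by DNTT, while VPREB1 was listed at 0. The summed implied level of these markers was 86394 in DMSO and 73774 in S3I-201, and of 14 tested 1, CD24, was lower, at -0.61 in the authors' deposited table. Of 22 markers of other cell types 11 were listed at 0, and 2, MPO and CSF1R, had a mean of at least 100. The T cell markers CD3D, CD3E and CD3G and the red cell marker HBB were at 0, and the summed implied level of all 22 was 1231 in DMSO and 1127 in S3I-201. The table does not state which group is the reference. A positive sign was taken to mean more RNA in S3I-201, and if the opposite holds all directions and group levels, above and below, are inverted.

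Among the 10 genes, 8 carry an adjusted p from the authors, and 4 of these 8 were called higher at an adjusted p of 0.05 while 0 were called lower. Among all 11912 genes with an adjusted p, 5.90% were called, 4.45% higher and 1.45% lower. The 4 genes were TRIB3, PPP1R15A, DDIT3 and ATF4, which all act downstream of eIF2 phosphorylation. No kinase was called, nor was PPP1R15B, and EIF2AK2 and NUPR1 had no adjusted p. The median log2 fold change of the 8 genes was 0.64 in the authors' deposited table, against -0.02 over all tested genes. Each gene's error and group levels were derived from these columns; the implied SE is the fold change's size over the normal quantile belonging to its p, and the implied level of each group was solved from the pooled mean and the fold change. These are bulk libraries, so that more RNA per cell and more cells with the RNA cannot be told apart.

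**Figure D1:**
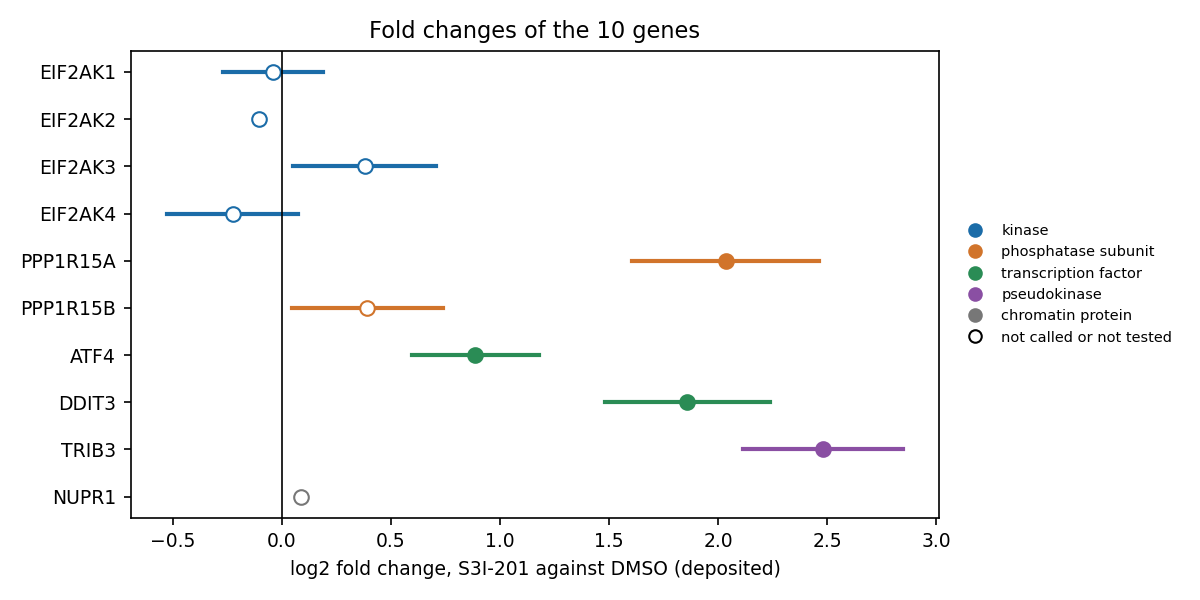
Log2 fold change of each of the 10 genes between S3I-201 and DMSO in the authors' deposited table (points, filled where called at an adjusted p of 0.05), coloured by role. Lines are 95% intervals from the implied SE, drawn for the 8 genes with an adjusted p, and can be too narrow. TRIB3, PPP1R15A, DDIT3 and ATF4 lie between 0.89 and 2.48, and the kinases lie between -0.22 and 0.38.

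The kinases differ in the stress they sense. EIF2AK3, or PERK, sits in the membrane of the endoplasmic reticulum and senses unfolded proteins. It had a mean of 1367, implied levels of 1188 in DMSO and 1546 in S3I-201, and 0.38 on the log2 scale of the authors' deposited table (implied SE 0.17, interval 0.05 to 0.71). With an unadjusted p of 0.0232 it did not pass (authors' DESeq2 adjusted p = 0.202). EIF2AK4, or GCN2, is activated by uncharged tRNA and stalled ribosomes. Its mean was 582 and its log2 difference -0.22 in the authors' deposited table (implied SE 0.15, interval -0.52 to 0.08, adjusted p = 0.538). EIF2AK1, or HRI, responds to lack of heme and, through DELE1, to mitochondrial stress. It had the highest mean of the kinases, 3751, and the value closest to 0 in the authors' deposited table, a log2 fold change of -0.04 (implied SE 0.12, interval -0.27 to 0.19, adjusted p = 0.933). Its sign turned when the abundance trend of the fold changes was removed, to 0.03. EIF2AK2, or PKR, is activated by double-stranded RNA and induced by interferon. It had a mean of 1092 and -0.10 on the log2 scale of the authors' deposited table, and its p-value is blank. It is 1 of 83 genes left without a p-value while they have a fold change, the form in which DESeq2, unless told otherwise, returns a gene with an outlying count, and the counts behind it were not analysed here. The intervals of EIF2AK1 and EIF2AK4 include 0 and leave room for differences of up to 1.14-fold and 1.05-fold upwards, and to 0.830-fold and 0.695-fold downwards. The fold changes appear shrunken towards 0, so these bounds can be too narrow.

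EIF2AK1 lies on chromosome 7 from 6022244 to 6059230, EIF2AK2 on chromosome 2 from 37099210 to 37157065 and EIF2AK3 on chromosome 2 from 88556741 to 88627576, all on the minus strand. EIF2AK4 lies on chromosome 15 from 39934146 to 40035591 on the plus strand (GRCh38, GENCODE 29). Of the exon bases of EIF2AK1, 9.59% are shared with AIMP2 on the other strand, which had -0.32 on the log2 scale of the authors' deposited table (adjusted p = 0.256). EIF2AK3 shares 14.4% with an antisense transcript that the table does not list by that name.

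PPP1R15A, also called GADD34, is the stress-induced subunit that directs protein phosphatase 1 to eIF2 alpha. Its mean normalized count was 1103, which splits into an implied 433 in DMSO and 1773 in S3I-201. That is a log2 fold change of 2.03, or 4.10-fold, in the authors' deposited table (implied SE 0.22, interval 1.60 to 2.46, authors' DESeq2 adjusted p = 9.46e-18). PPP1R15B, also called CReP, is the subunit that serves the same phosphatase in unstressed cells. It had a mean of 1673, implied levels of 1447 and 1898, and 0.39 on the log2 scale of the authors' deposited table, which did not pass (implied SE 0.18, interval 0.04 to 0.74, adjusted p = 0.221). The intervals of the paralogs did not overlap, but the difference between their fold changes was not tested. Per kb of exon, the implied level of PPP1R15A was 0.506 times that of PPP1R15B in DMSO and 1.58 times in S3I-201, so their order turned. PPP1R15A lies on chromosome 19 from 48872392 to 48876057 on the plus strand, and PPP1R15B on chromosome 1 from 204403387 to 204411791 on the minus strand (GRCh38, GENCODE 29). Genes nearest to PPP1R15A in log2 fold change in the authors' deposited table were DDIT4 at 1.99, an inhibitor of mTORC1, and DHRS3 at 1.97, a retinal reductase.

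ATF4 is the transcription factor at the centre of the response, and its activity is known to be set mainly by translation. It was the most abundant of the 10 genes, with a mean normalized count of 6893 and implied levels of 4841 in DMSO and 8946 in S3I-201. Its log2 fold change was 0.89, or 1.85-fold, in the authors' deposited table (implied SE 0.15, interval 0.60 to 1.18, authors' DESeq2 adjusted p = 2.54e-07). In fold this was the smallest of the 4 calls, with an interval below those of TRIB3, PPP1R15A and DDIT3. In absolute counts it was the largest, with an implied gain of 4105 normalized counts against 2819 for TRIB3. With a minimum absolute log2 fold change of 1 added to the call, ATF4 dropped out and the other 3 remained. ATF4 lies on chromosome 22 from 39519695 to 39522685 on the plus strand (GRCh38, GENCODE 29).

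DDIT3, also called CHOP, is a bZIP factor induced by ATF4 that is known for promoting cell death in prolonged stress. Its mean normalized count was 414, with an implied 179 in DMSO and 648 in S3I-201. The log2 fold change was 1.86, or 3.63-fold, in the authors' deposited table (implied SE 0.19, interval 1.48 to 2.24, authors' DESeq2 adjusted p = 4.05e-19). Nearest to it in the authors' deposited table were SLC1A4 at 1.85, a carrier of neutral amino acids, and TP53INP1 at 1.87, a stress protein of autophagy and p53 signalling. DDIT3 lies on chromosome 12 from 57516588 to 57521737 on the minus strand (GRCh38, GENCODE 29), where 355 of its 1307 exon bases, or 27.2%, are also exon of MARS on the other strand. Another 105 bases, or 8.03%, are shared on its own strand with AC022506.1, a name absent from the table. The library method does not mark strand, so reads from the shared bases cannot be assigned to either gene. MARS had a mean of 3957 and 0.72 on the log2 scale of the authors' deposited table (adjusted p = 6.95e-05), and its part in the value of DDIT3 was not tested.

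TRIB3 is a pseudokinase that binds ATF4, DDIT3 and AKT and is itself a target of both factors. Its mean normalized count was 2025, with an implied 616 in DMSO and 3434 in S3I-201. The authors' deposited table gives 2.48 on the log2 scale, a 5.58-fold difference (implied SE 0.19, 95% interval 2.11 to 2.84, authors' DESeq2 adjusted p = 6.49e-37). TRIB3 ranked 3 of 11912 genes by adjusted p and 4 by fold change. Its nearest called genes in fold change, at means of 100 or more, were RGS16 with 2.48, a regulator of G protein signalling, and SRXN1 with 2.34, which repairs peroxiredoxins, both on the log2 scale of the authors' deposited table. Of its relatives, TRIB1 had -0.08 in the authors' deposited table (adjusted p = 0.912) and TRIB2 was listed at 0. The gene lies on chromosome 20 from 362835 to 397559 on the plus strand (GRCh38, GENCODE 29, whole gene).

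NUPR1, a small stress-induced chromatin protein, was nearly absent. Its mean of 0.699 has a single decomposition into whole reads: 5 reads in 1 library of about 13600000 counts and 0 in the other 5. That library is of the group in which a lone read gives a positive sign. A count of 0 in a library allows up to 3 reads, and a fold change cannot be read from 5 reads. The authors' deposited table lists 0.09 on the log2 scale with a p of 0.323 and no adjusted p. NUPR1 lies on chromosome 16 from 28532708 to 28539174 on the minus strand (GRCh38, GENCODE 29).

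Levels can be set side by side per length, here the merged exons of all annotated transcripts of a gene. ATF4 stood at 2742 normalized counts per kb of exon, 77th of 11261 tested genes that matched GENCODE 29 by symbol. EIF2AK1 followed with 676, TRIB3 with 590, PPP1R15A with 357, PPP1R15B with 320, DDIT3 with 316 and EIF2AK3 with 252. EIF2AK2 had 102 and EIF2AK4 48.7 normalized counts per kb, and the median of the 11261 genes was 82.6. The level of EIF2AK1 per kb was thus 13.1 times that of EIF2AK4 in DMSO and 14.8 times in S3I-201 by the implied levels. The merged lengths of EIF2AK1 and EIF2AK4 are 5550 and 11957 bases, while their principal transcripts have 4469 and 5499. These ratios and the order of the genes therefore depend on the length used. In DMSO the implied levels per kb of DDIT3 (137), PPP1R15A (140) and TRIB3 (179) were close together, and all were below that of PPP1R15B (277). In S3I-201 TRIB3 (1000.1), PPP1R15A (573) and DDIT3 (496) all stood above PPP1R15B (363). The pooled means carry no spread, so whether neighbours in this order differ could not be tested.

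**Figure D2:**
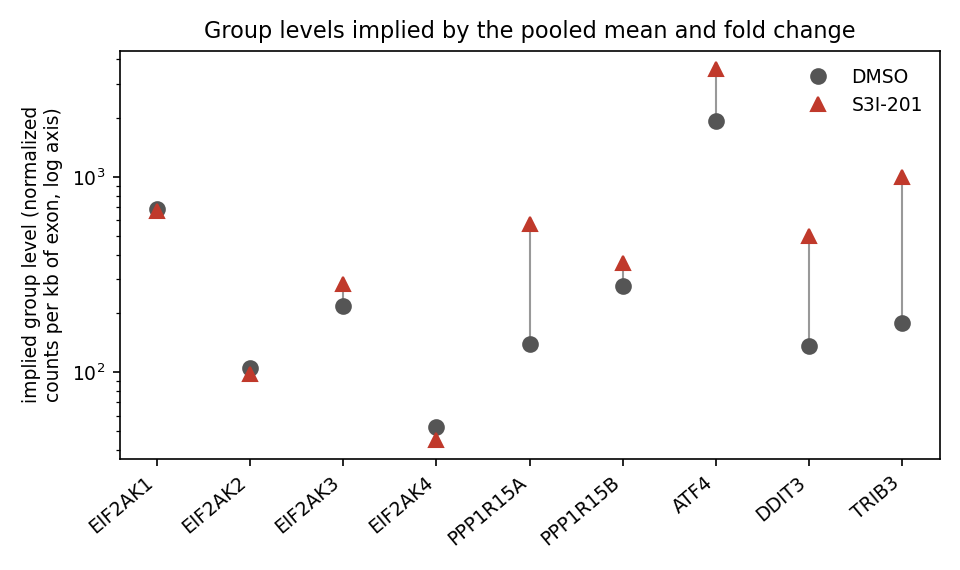
Implied level in DMSO (circles) and S3I-201 (triangles) for 9 of the genes, in normalized counts per kb of exon on a log axis, computed from the pooled mean and the fold change and therefore without error bars. TRIB3 moves from 179 to 1000.1 and ATF4 from 1926 to 3558, while EIF2AK1 stays at 685 and 666.

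**Figure D3:**
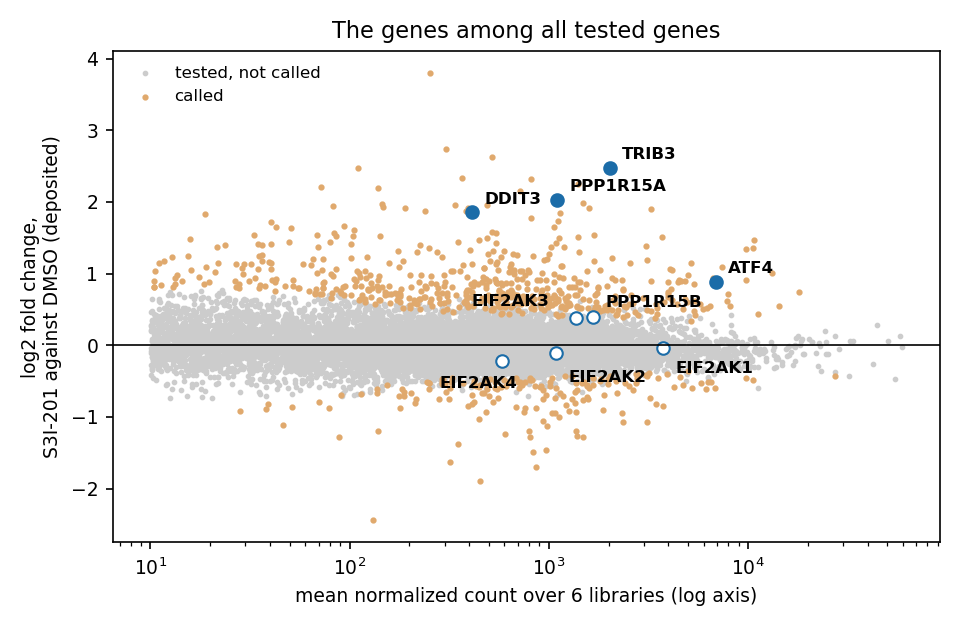
Log2 fold change in the authors' deposited table against the mean normalized count (log axis) of 11912 tested genes (grey, or orange where called), with 9 of the 10 genes in blue, filled where called. EIF2AK2 has no p-value and is shown open. TRIB3, PPP1R15A and DDIT3 lie near the upper edge of the cloud at means of 414 to 2025, and the 4 kinases lie within it.

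Sequence around the transcript starts is described because 4 of the genes rose together. RefSeq windows (GRCh38.p14) from 250 bases before to 50 after the start were matched by symbol for 8 of the 10 genes, not for EIF2AK1 and NUPR1, and the first window listed was taken. For DDIT3, ATF4, TRIB3, PPP1R15A and EIF2AK2 that start lies inside the whole-gene span given above, and for PPP1R15B it lies outside. Both strands were searched for 10 motifs. The composite element of ATF4 and C/EBP factors, TGATGNAA, occurred in 3.62% of all 35116 windows and among these genes in that of PPP1R15B, from base -227 to -220. The cyclic AMP response element TGACGTCA, bound by ATF and CREB factors, occurred in 1.85% of windows and in that of PPP1R15A, from -58 to -51. The AP-1 site TGANTCA, bound by JUN and FOS, occurred in 7.71% of windows and in those of DDIT3 and EIF2AK4. An interferon-type element, GAAA, any 2 bases and GAAA, occurred in 3.57% of windows and in that of EIF2AK2, from -6 to 4. The E-box CACGTG was in 7.26% of windows and in those of ATF4 and EIF2AK2, the TATA box TATAAA in 11.5% and in those of ATF4 and PPP1R15A. CCAAT boxes, in 34.6% of windows, lay in those of DDIT3, EIF2AK2, EIF2AK3 and PPP1R15B, and EIF2AK3 had 4 of them. The antioxidant element TGACNNNGC, in 13.3% of windows, lay in those of PPP1R15A and TRIB3. No window of the 8 held the unfolded protein response element TGACGTGG (0.729% of windows) or the endoplasmic reticulum stress element, CCAAT, any 9 bases and CCACG (0.0769%). A match is a description of letters, and a missing match speaks only of this window.

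Stretches of these windows are shown for the 4 called genes and, for contrast, for PPP1R15B and EIF2AK2, 5′ to 3′ on the gene's strand, with some of the motif matches in capitals. Capitals mark the cyclic AMP response element and TATA box in PPP1R15A (chr19:48872353-48872420, plus), the AP-1 site and both CCAAT boxes, the latter also as its reverse complement ATTGG, in DDIT3 (chr12:57520515-57520764, minus), and the E-box and TATA box in ATF4 (chr22:39520467-39520558, plus). They mark the composite element and CCAAT box in PPP1R15B (chr1:204411968-204412054, minus) and the interferon-type element in EIF2AK2 (chr2:37156977-37157040, minus). TRIB3 (chr20:381235-381294, plus) had no match in the stretch shown.
PPP1R15A: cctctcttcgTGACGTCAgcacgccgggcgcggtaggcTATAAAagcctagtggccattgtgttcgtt
DDIT3: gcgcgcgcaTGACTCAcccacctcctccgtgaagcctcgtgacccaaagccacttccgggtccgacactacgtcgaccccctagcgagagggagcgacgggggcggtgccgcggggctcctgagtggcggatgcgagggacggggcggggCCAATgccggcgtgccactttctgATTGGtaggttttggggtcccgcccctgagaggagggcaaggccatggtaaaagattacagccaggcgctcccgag
ATF4: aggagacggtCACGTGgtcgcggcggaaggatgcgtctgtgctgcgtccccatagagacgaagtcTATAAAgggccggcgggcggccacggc
TRIB3: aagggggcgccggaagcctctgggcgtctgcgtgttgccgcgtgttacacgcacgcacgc
PPP1R15B: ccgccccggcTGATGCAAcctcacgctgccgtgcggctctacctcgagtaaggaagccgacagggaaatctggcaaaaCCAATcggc
EIF2AK2: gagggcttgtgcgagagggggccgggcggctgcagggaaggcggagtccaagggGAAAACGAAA

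**Figure D4:**
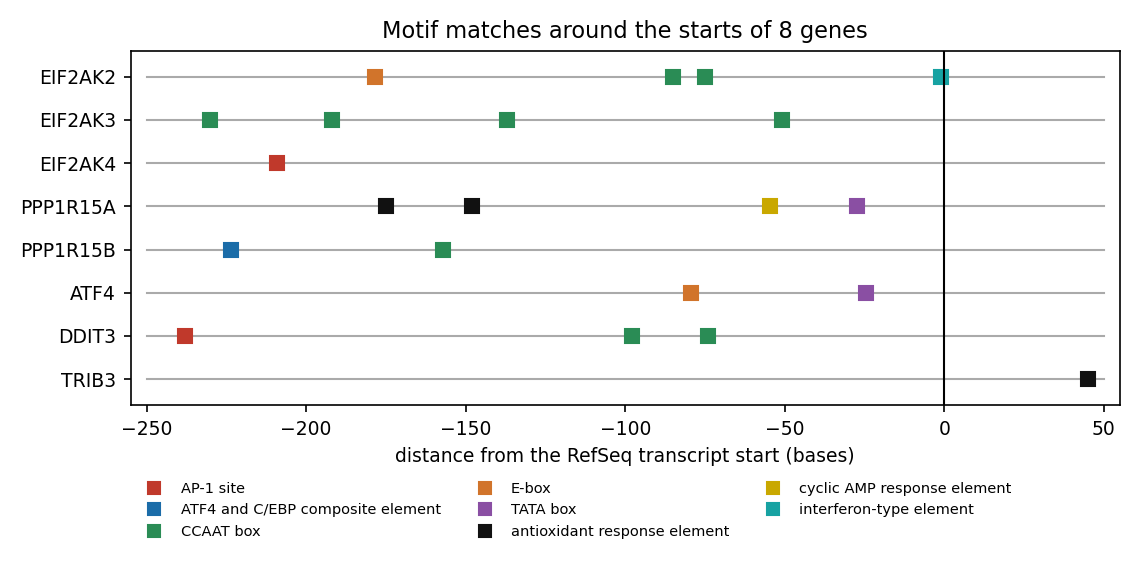
Motif matches (squares, coloured by motif, both strands) from 250 bases before to 50 after the RefSeq start of 8 genes, with the start as a vertical line. PPP1R15A and ATF4 carry a TATA box just before the start, EIF2AK3 has 4 CCAAT boxes, and the composite element of ATF4 and C/EBP factors appears for PPP1R15B alone.

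Upstream start codons, the feature through which eIF2 phosphorylation selects messages, were counted in the 5′ leaders of the principal transcripts of GENCODE 29. In 8 of the 10 genes every principal transcript had at least 1 upstream ATG, and EIF2AK1 and EIF2AK4 had none in leaders of 147 and 43 bases. Among 18670 coding genes with 1 transcript each, 49.8% had such an ATG, and the median leader had 168 bases. Of the 8 genes all except DDIT3, with 141 to 209 bases, had leaders of at least 267 bases. Whether leader length accounts for their upstream ATGs was not tested. The shortest ATF4 leader, of 280 bases, held 3 of them, opening frames of 1, 3 and 59 codons, the last of which runs past the coding start in another frame. The other 2 ATF4 transcripts had leaders of 773 and 882 bases with 6 and 7 upstream ATGs, and each had at least 1 frame running past the coding start. Such an overlapping frame was present in 16.3% of the 18670 genes and among the 10 genes also in EIF2AK3 and in 2 of 3 DDIT3 transcripts. DDIT3 had a frame of 34 codons that ends before the coding start in 2 of its 3 transcripts. PPP1R15A had 2 upstream frames of 22 and 26 codons, PPP1R15B 2 of 8 and 51 codons, and TRIB3 3 of 8, 14 and 77 codons, all ending before the coding start. Which of these transcripts REH cells use was not measured.

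The known targets of ATF4, apart from the 10 genes, were mostly higher. Of 56 tested, 44 were higher, 0 were lower and 12 did not pass, which is 78.6% against 4.45% of all tested genes, with a median log2 fold change of 0.94. CHAC1, which degrades glutathione, had 2.75 in the authors' deposited table (implied SE 0.22, authors' DESeq2 adjusted p = 9.52e-32), close to TRIB3 in size. HERPUD1, of endoplasmic reticulum degradation, had 1.91, the repressor JDP2 1.88 and the leucine sensor SESN2 2.25 in the authors' deposited table. SLC7A5 at 1.47 and SLC3A2 at 1.51, which form a carrier of large neutral amino acids, SLC1A4 at 1.85 and DDIT4 at 1.99 also rose in the authors' deposited table. Of 9 amino acid carriers in the list 8 were higher, and the exception in the authors' deposited table was SLC7A3 at 0.50, which missed the threshold. All 5 tested enzymes of serine, glycine and one-carbon metabolism in the list were higher, from 0.60 to 1.65. Of the 12 cytosolic aminoacyl-tRNA synthetases in the list 10 were higher. In the authors' deposited table EPRS, with 0.37, and LARS, with 0.18, were the exceptions. Of 5 autophagy genes in the list 3 were higher, with ATG12 at 0.47 and ATG16L1 at 0.09 not past in the authors' deposited table. The lowest value of the list was -0.34 for ALDH18A1, an enzyme of proline synthesis, in the authors' deposited table (adjusted p = 0.252). With a minimum absolute log2 fold change of 1 the count of higher targets was 24.

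Among all tested genes 4.45% were called higher. Of DDIT3 targets outside the 10 genes 7 of 11 tested, or 63.6%, were higher, with 0 lower and a median of 1.21. They include GADD45A, a growth arrest gene, at 1.96 and the death receptor TNFRSF10B at 1.37 in the authors' deposited table. There ERO1A, an oxidase of the endoplasmic reticulum that DDIT3 is known to induce, had -0.20 (adjusted p = 0.558). BCL2, which DDIT3 is known to repress, had -0.38 in the authors' deposited table (adjusted p = 0.289). BCL2L11 at -0.10 and GADD45B at 0.27 did not pass either in the authors' deposited table. The list shares 5 genes with that of ATF4, and 4 of them, DDIT4, ATF5, BBC3 and WARS, are among the 7 that were higher. Of 13 tested genes listed as bZIP factors that pair with ATF4 or DDIT3, 10, or 76.9%, were higher. The 13 include CEBPZ, which is not a bZIP factor despite its name and had -0.16 in the authors' deposited table (adjusted p = 0.648). The median of the 13 was 1.02, and 0 were lower. The 4 with the smallest adjusted p were JDP2, ATF5 at 1.35, CEBPB at 1.30 and CEBPG at 0.94 in the authors' deposited table. By fold change ATF3 at 1.73, JUN and FOSL1 at 1.41 came between JDP2 and ATF5 in the authors' deposited table, and 5 of the 16 listed genes are also in the ATF4 list. CEBPA, with 5 reads in 2 libraries, was not tested.

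**Figure D5:**
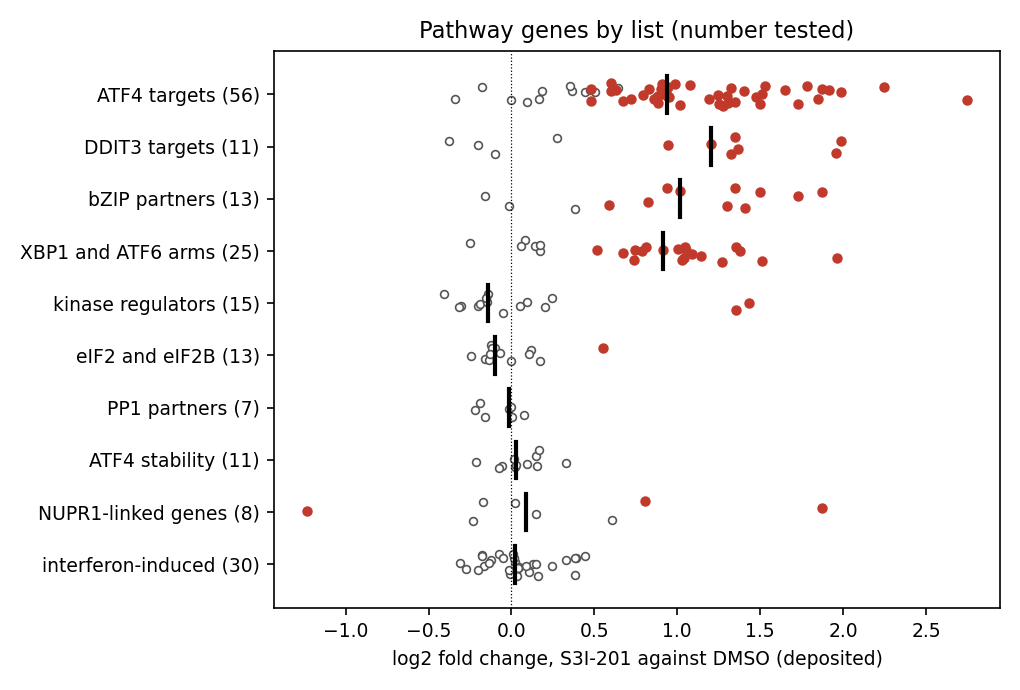
Log2 fold changes in the authors' deposited table of the tested genes of 10 lists (points, red where called; vertical bars are list medians; the number tested is in brackets), without the 10 genes themselves. The lists of ATF4 targets, DDIT3 targets, bZIP partners and the XBP1 and ATF6 arms have medians of 0.91 to 1.21, and the other 6 have medians between -0.14 and 0.08.

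The IRE1-XBP1 and ATF6 arms, which respond to unfolded proteins beside EIF2AK3, were higher in 19 of 25 tested genes, with 0 lower and a median of 0.91. That is 76%, against 4.45% of all tested genes called higher. Of the genes the arms are named after, XBP1 at 1.14 and ERN1, which encodes IRE1, at 0.74 were higher in the authors' deposited table. There ATF6 had 0.17, ATF6B -0.25, MBTPS1 0.08 and MBTPS2 0.06, and none of these passed. SEC61B at 0.14 and DERL1 at 0.17 did not pass either in the authors' deposited table. The co-chaperone DNAJB9 had 1.96, the secreted factor MANF 1.38, the chaperone HSPA5 1.35 and the vesicle coat gene SEC24D 1.51 in the authors' deposited table. With a minimum absolute log2 fold change of 1 the count was 12.

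Of 15 tested regulators of the kinases 2 were higher, or 13.3% beside 4.45% of all tested genes, and 0 were lower, with a median of -0.14. The 2 were DNAJC3, an inhibitor of EIF2AK3 and EIF2AK2, at 1.43 (implied SE 0.18, authors' DESeq2 adjusted p = 9.04e-13) and HSPA5, which restrains EIF2AK3, in the authors' deposited table. GCN1, the partner through which EIF2AK4 reads ribosomes, had -0.32 in the authors' deposited table (adjusted p = 0.139). IMPACT, an inhibitor of EIF2AK4, was represented by 1 read in all. Of 13 subunits of eIF2 and eIF2B and related factors, EIF2S2, the beta subunit of eIF2, was higher in the authors' deposited table by 0.55 on the log2 scale (SE 0.15 as implied, authors' DESeq2 adjusted p = 0.00671), and 12 did not pass, so that 7.69% were higher. EIF2S1, the alpha subunit that the kinases phosphorylate, had -0.12 in the authors' deposited table (adjusted p = 0.734). Of 7 genes of protein phosphatase 1 and its partners 0 passed by the authors' DESeq2 adjusted p, with 0 at an unadjusted p under 0.05, among them the catalytic subunits PPP1CA at -0.16, PPP1CB at -0.02 and PPP1CC at -0.22 in the authors' deposited table. As 5.90% of all tested genes were called, 0 of 7 lies near that share.

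Of 11 tested genes that control ATF4 or DDIT3 protein stability or activity 0 had an authors' DESeq2 adjusted p under 0.05, and 1, the deubiquitinase USP11 at 0.33, had an unadjusted p under 0.05 in the authors' deposited table. Of 30 interferon-induced genes, the family to which EIF2AK2 belongs, 0 had an authors' DESeq2 adjusted p under 0.05 and 3 had an unadjusted p under 0.05, with a median of 0.02. Among these were IFIT2 at 0.38 and OAS3 at -0.31 in the authors' deposited table. As 5.90% of all tested genes were called, 0 of 11 and 0 of 30 lie near that share and say little about these lists. Of 8 tested genes linked to NUPR1, TP53INP1 and RELB at 0.80 were higher, and AURKA, a mitotic kinase, had -1.23 in the authors' deposited table and was lower (implied SE 0.23, authors' DESeq2 adjusted p = 1.25e-05). That is 25% higher and 12.5% lower, beside 4.45% and 1.45% of all tested genes.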

How the data were processed

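Reads were processed by the authors with bcl2fastq 2.19, Trimmomatic, Bowtie2, Picard, featureCounts and DESeq2 on hg38, per the submitters' processing notes, which give no roles. RNA came from a column kit and libraries from the TruSeq RNA v2 method, per the labels' protocols. The annotation and strand setting of the counting are not given in the sources used here. There are 4 columns of values in the authors' deposited table. The mean normalized count is a signal column in which the authors averaged size-factor-scaled counts over 6 libraries, per the file headers. The log2 fold change, p-value and adjusted p are the authors' own, per the file headers.

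Here the adjusted p was used as deposited, with calls at 0.05. Implied SEs, 95% intervals and implied group levels were computed from the deposited columns (Python 3.11.15, scipy 1.17.1). The fold changes appear shrunken towards 0, so that implied SEs and group differences can be understated. Implied levels solve for 2 group values with the deposited mean and ratio. Size factors came from the single-read steps, which explained 100% of 2067 genes with a low mean within 1e-07, with depth scaled by the sum of the means. P-values measure the spread between 3 libraries per group.

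The 10 genes and the 12 lists beside them were chosen with earlier results of these data known. Named are all 10 genes, in each list the 4 genes lowest in adjusted p (8 for ATF4 targets), and the 2 nearest in fold change to each of the 3 largest changes. Other genes named were chosen after their values were seen. A few genes under this rule are left unreported. Genes of the 10 were taken out of the other lists. Exon lengths merge the exons of all annotated transcripts of a gene. These lengths, the positions and the leaders are from GENCODE 29, promoters from RefSeq. Simulated fold changes were used to test the p-value adjustment and the removal of the abundance trend. The other calculations were not tested in this way.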

Additional observations from a re-analysis of the deposited data

How the results depend on the processing

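Alternatives were thresholds of 0.01 and 0.1, a minimum absolute log2 fold change of 1, adjustment that also takes in untested genes holding a p-value, and removal of the median fold change in 20 bins of abundance, which shifted fold changes by -0.07 to 0.06. The count of 4 called genes among the 10 held in all of these except the minimum fold, which left 3. With that minimum the counts were 24 for ATF4 targets, 12 for the XBP1 and ATF6 arms and 0 for eIF2 and eIF2B. With the abundance trend removed, EIF2AK1 turned from -0.04 to 0.030 in log2 fold change (adjusted p = 0.964), and 1 gene of ATF4 stability, USP11, was called. Of 48 tested genes under the naming rule, RELB was lost at 0.01 and IER3 gained at 0.1, and none changed under the wider adjustment. The minimum fold ended the calls of ATF4, EIF2S2, CEBPG and RELB. No paired analysis was possible because the deposited table holds no values per library, and leaving out single libraries, another normalization and another count filter could not be run for the same reason. Depth limits NUPR1, with 5 reads, and EIF2AK2 has no test.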
